A study of Mus musculus with 5480 samples.

Results

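Cox4i2, Ndufa4l2, Higd1b, Cspg4, Mcam, Vtn and Rgs5 are 7 genes widely used to recognise pericytes, and their expression was followed in single mesenchymal cells of the mouse distal lung. The genes were taken as a list of names, whatever their level, and all 7 were rows of a read count table of 18072 genes and 5480 cells. The cells came from 10 mice, a female and a male for each of 5 groups. Of these groups, 4 are labelled normal, taken at embryonic day 18.5 (E18.5), before birth, or on postnatal day 1 (P1), 7 (P7) or 21 (P21), and the fifth was kept in hyperoxia and taken at P7. The strain, genotype and oxygen fraction are not given in the sources used here, and no transgene or deletion is named for any group. The authors had assigned each cell to 1 of 16 subtypes, among them 281 pericytes, 19 proliferating pericytes and 201 vascular smooth muscle cells.

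Pericytes are mural cells that lie along capillaries inside the endothelial basement membrane, where they stabilise the vessel and respond to platelet-derived growth factor through the receptor Pdgfrb. In the lung they line the dense capillary bed of the alveoli, while vascular smooth muscle surrounds the larger vessels. The 7 genes fall into distinct roles. Cox4i2 and Ndufa4l2 encode tissue-restricted relatives of the mitochondrial proteins Cox4i1 and Ndufa4, which belong to cytochrome c oxidase, and Higd1b belongs to a family of small mitochondrial proteins named for induction by hypoxia. Cspg4, a transmembrane chondroitin sulfate proteoglycan, and Mcam, an adhesion molecule of the immunoglobulin family, lie at the cell surface. Vtn encodes vitronectin, a secreted adhesive glycoprotein bound by integrins, and Rgs5 encodes a regulator that speeds the switching-off of G protein signals.

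The promoters of Vtn and Rgs5 are shown because the pericyte levels of these 2 genes lay farthest apart between P7 and P21, with Vtn higher and Rgs5 lower at P21. Each is the 250 bases before the annotated start on the plus strand of the mouse build GRCm38.p6, from RefSeq, at chr11:78498870-78499119 for Vtn and chr1:169655251-169655500 for Rgs5. The table of promoters held 4 of the 7 genes. Capitals mark the core of the binding motif of RBPJ, the DNA-binding factor of Notch signalling, spelled TGGGAA and searched on both strands.
Vtn: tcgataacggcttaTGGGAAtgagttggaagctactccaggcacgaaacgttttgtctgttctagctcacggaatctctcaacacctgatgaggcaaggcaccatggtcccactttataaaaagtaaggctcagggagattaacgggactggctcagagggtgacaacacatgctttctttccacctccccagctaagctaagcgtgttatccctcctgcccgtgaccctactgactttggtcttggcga
Rgs5: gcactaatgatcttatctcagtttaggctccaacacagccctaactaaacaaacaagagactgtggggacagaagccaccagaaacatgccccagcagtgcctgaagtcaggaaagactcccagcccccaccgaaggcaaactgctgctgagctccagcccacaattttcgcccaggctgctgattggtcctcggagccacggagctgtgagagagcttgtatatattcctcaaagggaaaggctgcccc
The RBPJ core was present in the Vtn window and absent from the Rgs5 window, and 21.6% of 32851 promoter windows of the same length held it. The hypoxia-response core ACGTG (in 16.6% of windows), the E-box CACGTG (6.02%), which contains the ACGTG core, and the CArG box of smooth muscle genes (1.47%) had no match in either window. The G and C content was 50.4% for Vtn and 53.6% for Rgs5.

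The table held 294154721 to 671766116 reads per mouse over 311 to 633 cells. Pericytes numbered 14 in each E18.5 mouse and 70 and 75 in the female and male at P21, but 5 and 3 in the hyperoxia mice, under the minimum of 10 cells per mouse set for a test, so pericytes were not tested under hyperoxia. The mesenchymal-sorted cells of each hyperoxia mouse, all their pericytes included, were in sequencing runs without cells of any other mouse, so run and hyperoxia cannot be told apart for them. Only 9 CD31-sorted cells of the male shared a run with other mice. Mesenchymal-sorted cells of females and of males were never in the same run, so sex and run cannot be told apart for them either. Those of the normal males were all in 1 run. Those of the females at E18.5 and P1 shared a run, while the P7 and the P21 female were each in another, so female steps after P1 also changed run. Nothing in the labels ties the mice of a group to separate litters, and p-values measure the spread between these mice. The pericyte label was described with 7 pericyte genes outside the list. The labels came from clustering these cells on their expression, so these genes are no independent check of the label. In each mouse with at least 10 pericytes, 6 or 7 of these were detected, with a summed level of 2558 to 5239 CPM, which is reads of the gene per 1000000 reads of the library. Kcnj8 and Abcc9, subunits of a potassium channel and common pericyte markers elsewhere, had a read in only 26.0% and 29.9% of the pericytes. Endothelial markers summed to 1.23 to 99.96 CPM and fibroblast markers to 97.0 to 514 CPM, the latter mostly from Tcf21 at a mean of 215 CPM. In vascular smooth muscle, the nearest neighbour, the pericyte list summed to 814 to 2370 CPM with 5 to 7 genes detected, so it separated the labels by its sum and not by detection. Trpc6 (544 CPM in pericytes and 37.2 CPM in vascular smooth muscle) and Pdgfrb (1708 and 559 CPM) were higher in pericytes, while Notch3 (481 and 436 CPM) and Foxs1 (178 and 159 CPM) lay close together. Of the endothelial genes, Tie1 was at 0 and Cdh5 at 0.0675 CPM in pericytes, but Tek was at 24.1 CPM and Pecam1 at 4.69 CPM. Tek had a read in 9.96% and Pecam1 in 11.0% of the pericytes. In vascular smooth muscle Tek was at 2.24 CPM and Pecam1 at 14.9 CPM. The vascular smooth muscle list summed to 2395 to 5088 CPM in pericytes at P7 and to 318 to 435 CPM at P21. Of its 7 genes, Acta2 (mean 1815 CPM, a read in 42.0% of pericytes), Myh11 (233 CPM, 49.1%) and Tagln (57.8 CPM, 45.9%) were present in many pericytes, whereas Cnn1 and Actc1 were at 0.00614 and 1.91 CPM. All 5 were higher in vascular smooth muscle, where Acta2 was at 17348 CPM, Cnn1 at 654 and Actc1 at 1790.

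Of the 7 genes, 6 had their highest mean level in pericytes, and the place of Rgs5 changed with age. Levels are CPM after summing the reads of a mouse's cells of 1 subtype, given over mice with at least 10 such cells. For pericytes these are the 8 mice outside hyperoxia, and for vascular smooth muscle the 6 mice from P1 to P21 and the 2 hyperoxia mice, because no E18.5 mouse had 10 cells. The subtypes were clustered on the expression of these cells, so levels by subtype are a description with no test.

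Among the mitochondrial genes, Cox4i2 was at 2403 ± 827 CPM in pericytes (SD, n = 8 mice), with a lowest value of 1036, a median of 2575 and a highest of 3444. Vascular smooth muscle followed at 591 ± 318 CPM (SD, n = 8), and the highest of its values, 1294, overlapped the lowest of the pericytes. Over the 6 mice that both classes share, from P1 to P21, the means were 2788 ± 479 and 658 ± 344 CPM (SD, n = 6), with no overlap. The next subtype, airway smooth muscle, had a mean of 27.9 CPM. Higd1b was the most restricted of the mitochondrial genes, at 1673 ± 513 CPM in pericytes and 100.4 ± 66.7 CPM in vascular smooth muscle (SD, n = 8 each). The pericyte values for Higd1b ran from 877 to 2336 CPM, above every vascular smooth muscle value. Higd1b had a read in 0 of 286 early airway smooth muscle cells, which allows a share of up to 1.05%. Ndufa4l2 was at 2147 ± 585 CPM in pericytes (SD, n = 8; lowest 1184, median 2131, highest 3120) and at 581 ± 238 CPM in vascular smooth muscle (n = 8).

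Ndufa4l2 also stood in fibroblast lineages. Fibroblast precursors, of which only the E18.5 mice had at least 10 cells, held it at 310 ± 50.2 CPM (SD, n = 2), and early adventitial fibroblasts at 137 ± 91.0 CPM (SD, n = 8). Within the early adventitial fibroblasts it was at 297 and 267 CPM in the female and male at E18.5 and at 78.7 and 73.9 CPM at P7. Pericytes therefore gave 46.1% of all Ndufa4l2 reads in the table, against 77.8% of those of Cox4i2 and 86.4% of those of Higd1b.

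Of the surface genes, Mcam was at 1512 ± 382 CPM in pericytes (SD, n = 8; 742 to 1873) and 405 ± 150 CPM in vascular smooth muscle (n = 8), with no overlap between them. Cspg4 was lower and more widely shared, at 384 ± 212 CPM in pericytes (SD, n = 8; lowest 173, median 312, highest 811) and 157 ± 103 CPM in vascular smooth muscle (n = 8). Pericytes held 65.7% of the Mcam reads and 39.4% of the Cspg4 reads. Vtn, the secreted member, had 89.6% of its reads in pericytes, and 81.9% of those pericyte reads came from the P21 mice. Within the P21 mice its share in pericytes was 89.7% and 92.0%, below that of Higd1b at 92.2% and 96.0%. Vtn had a spread nearly as wide as its mean, at 276 ± 254 CPM (SD, n = 8; 54.3 to 687). Its mean in vascular smooth muscle was 55.9 ± 81.3 CPM (SD, n = 8).

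For Rgs5 the order of subtypes differed between ages. Over the mice of each subtype, its highest mean was in the shared precursors of myofibroblasts and smooth muscle, at 287 and 334 CPM in the 2 E18.5 mice. Vascular smooth muscle followed at 263 ± 242 CPM (SD, n = 8), early airway smooth muscle at 187 ± 70.6 CPM (SD, n = 6) and pericytes at 148 ± 126 CPM (SD, n = 8; 47.3 to 403). These means cover unlike mice, and the neighbours in the order overlapped within their spreads. At P7 in normal mice, Rgs5 was 403 and 193 CPM in pericytes, 212 and 273 in early airway smooth muscle and 157 and 258 in vascular smooth muscle, so the pericyte mean of 298 CPM was the highest of the 3 and their values overlapped. At P21 it was 63.4 and 47.3 CPM in pericytes and 448 and 776 in vascular smooth muscle. Over the 6 mice shared by both, vascular smooth muscle was at 311.0 ± 263 CPM and pericytes at 139 ± 140 (SD, n = 6). Only 11.4% of all Rgs5 reads lay in pericytes, against 27.3% in the precursors, 22.6% in early airway smooth muscle and 17.3% in vascular smooth muscle.

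Per kilobase of exon, which allows levels of different genes to be compared, the pericyte means spanned a wide range. Cox4i2 was at 3049 CPM per kilobase, Higd1b at 1975, Ndufa4l2 at 1960 and Mcam at 451, while Vtn was at 136, Rgs5 at 32.6 and Cspg4 at 32.2. The 19 proliferating pericytes, pooled because no mouse had 10, had 1090 CPM of Cox4i2, 1095 of Ndufa4l2, 852 of Higd1b, 897 of Mcam, 436 of Cspg4, 65.9 of Vtn and 65.4 of Rgs5. These cells came from E18.5, P7 and hyperoxia mice only, with none at P1 or P21, so the values are not matched in age to the pericyte means. Exons of Ndufa4l2 and Mcam overlap those of a gene on the opposite strand, Shmt2 by 32 bases and Gm10687 by 17 bases, and whether counting used the strand is not given in the sources used here.

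**Figure D1:**
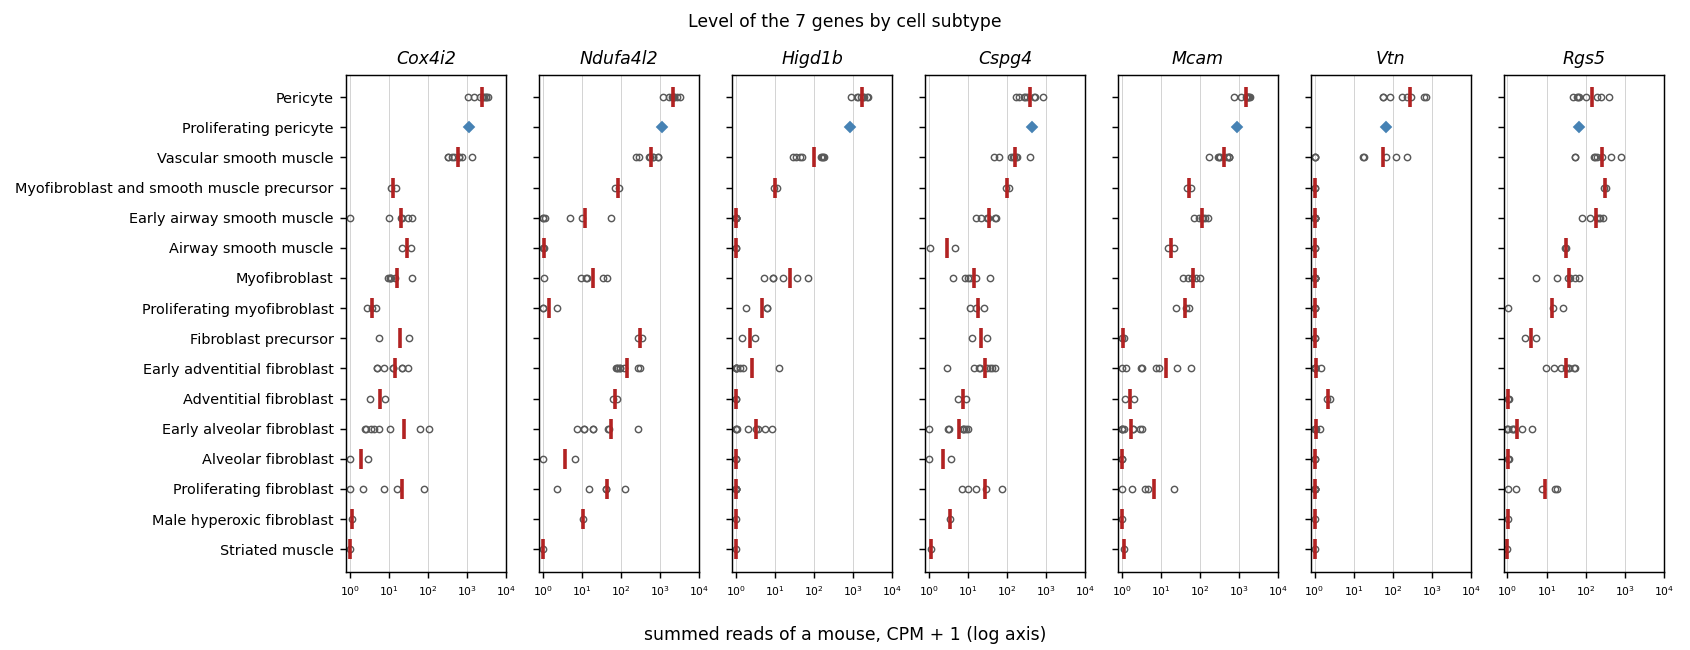
Level of each of the 7 genes by subtype, as CPM plus 1 on a log axis; each open circle is a mouse with at least 10 cells, the red tick is the mean over mice, and the blue diamond is the pooled value of the proliferating pericytes. Pericytes carry the highest mean for 6 genes, whereas for Rgs5 the pericyte mean of 148 CPM, over all ages, lies below those of 3 contractile subtypes that cover other ages.

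Cell by cell, the genes divided in the same way. A read of Cox4i2 was found in 98.6% of pericytes, of Higd1b in 95.7%, of Mcam in 94.3% and of Ndufa4l2 in 92.9%. Cspg4 was found in 66.9%, Vtn in 45.2% and Rgs5 in 37.4%. In alveolar fibroblasts, taken as a subtype that should lack them, the share was 6.00% for Cspg4 and between 0.400% and 2.80% for the other 6 genes, at a median depth of 727179 reads per cell against 648751 in pericytes. After each cell was thinned to 100000 reads, the pericyte shares were 98.5% for Cox4i2, 64.0% for Cspg4, 46.2% for Vtn and 31.3% for Rgs5.

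At least 5 of the 7 genes were read in 217 of 281 pericytes (77.2%), all 7 in 42, and no pericyte lacked them all. Per mouse, the share with at least 5 was 79.0% ± 8.85 (SD, n = 8 mice). Vascular smooth muscle cells reached 5 genes in 37 of 201 cells (18.4%) and all 7 in 1 cell. Among the 4979 cells of the other labels, excluding proliferating pericytes, 14 cells had at least 5. The 5 pericytes with at most 2 of the genes had a median of 258208 reads, and the 217 with at least 5 a median of 728593, so depth moved with the number of genes read. Its part in that number was not tested.

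Vascular smooth muscle cells that carried more of the genes also differed in some other mural genes. In the 37 cells with at least 5, the median level was 1010 CPM for Pdgfrb and 7579 CPM for Acta2, smooth muscle actin. In the 77 cells with at most 2, these medians were 17.0 and 17101 CPM. Notch3 had medians of 546 CPM in the 37 cells and 7.16 CPM in the 77. Kcnj8 and Abcc9 had a median of 0 CPM in both sets. Kcnj8 had a read in 32.4% of the 37 cells and 5.19% of the 77, and Abcc9 in 27.0% and 22.1%. The smooth muscle gene Myh11 lay closer together, at 616 and 698 CPM. The 37 cells were also deeper, with a median of 903252 reads against 660327 in the 77, and the part of depth was not tested. Of the 14 cells of other labels with at least 5 genes, 8 were early adventitial fibroblasts, 5 of them from hyperoxia mice. Their median Acta2 level was 10735 CPM and their median level of Dcn, a fibroblast matrix gene, was 3.003 CPM, against 224 and 1560 CPM in the 544 cells of that label with at most 2 genes.

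**Figure D2:**
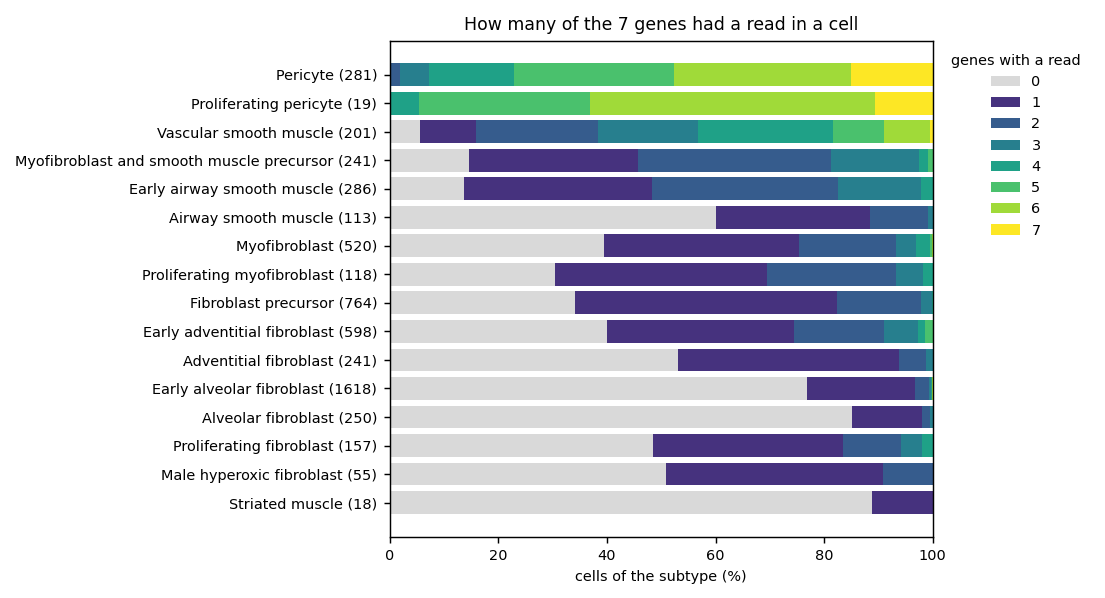
Percent of the cells of each subtype (horizontal stacked bars) with a read of 0 to 7 of the 7 genes. In pericytes 77.2% of cells had a read of at least 5 genes, in vascular smooth muscle 18.4%.

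Within the pericytes, reads of the less often detected genes were held by few cells. For each gene, the tenth of pericytes with the most reads of it, 28 cells, held 81.3% of the Rgs5 reads, 62.5% of the Vtn reads and 55.2% of the Cspg4 reads, but 34.4% of the Cox4i2 reads. The 7 genes were weakly related between single pericytes of the same mouse. Over the 21 pairs of genes, Pearson's r of log2 levels, taken within mice, ran from 0.00629 for Cox4i2 and Rgs5 to 0.301 for Cspg4 and Mcam, with a median of 0.158. These cells share mice and differ in depth, and the values are a description.

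Comparing each gene with its family members gave the share that each tissue-restricted isoform held beside its common relatives. Summed per kilobase of exon, Cox4i2 made up 82.2% ± 11.8 of Cox4i2 and Cox4i1 together in pericytes (SD, n = 8), 54.6% ± 12.6 in vascular smooth muscle (n = 8) and 15.2% ± 8.35 in airway smooth muscle (n = 2). The pericyte share was 77.1% and 57.1% in the female and male at E18.5 and 93.0% and 91.9% at P21. Ndufa4l2 reached 99.3% ± 0.827 of itself and Ndufa4 in pericytes (SD, n = 8), where only 4.27% of cells had a read of Ndufa4. Its share was 77.2% ± 10.8 in vascular smooth muscle (n = 8) and 50.7% ± 4.02 in fibroblast precursors (n = 2). Higd1b made up 91.3% ± 3.91 of its sum with Higd1a and Higd2a in pericytes (SD, n = 8) and 35.9% ± 24.3 in vascular smooth muscle (n = 8). Rgs5 held 21.3% ± 16.9 of its sum with Rgs2, Rgs4 and Rgs16 in pericytes and 25.9% ± 14.6 in vascular smooth muscle (SD, n = 8 each), a difference within the spread between mice.

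**Figure D3:**
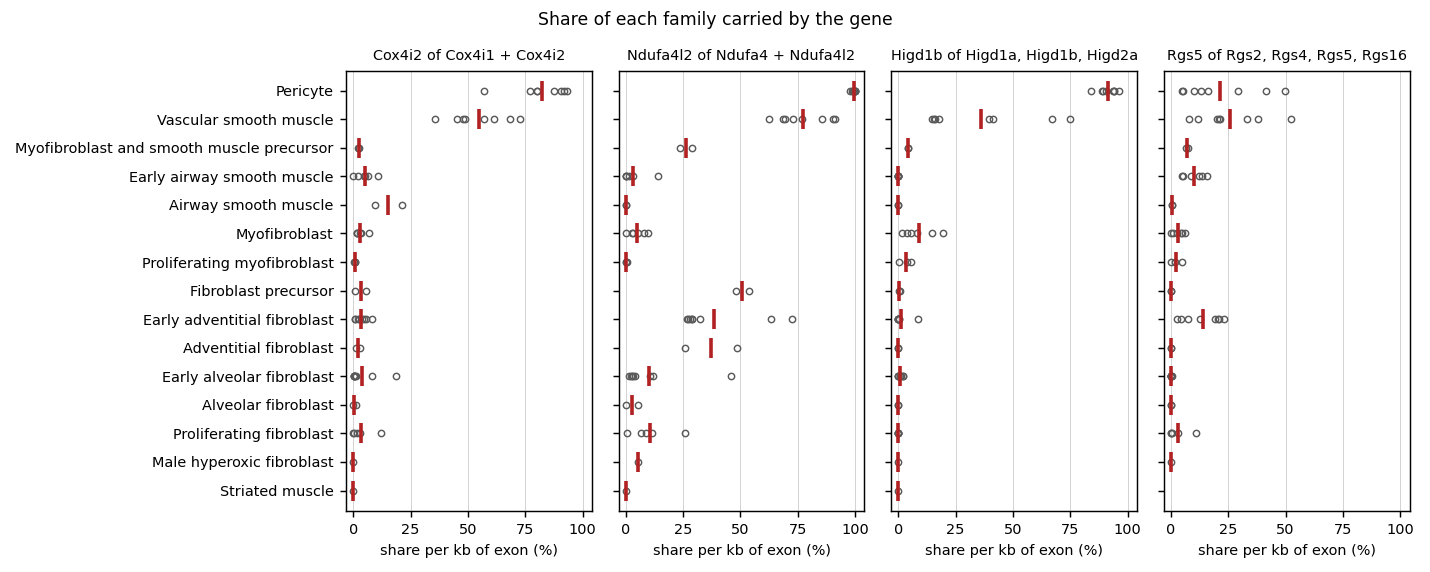
Share, in percent of the sum per kilobase of exon, that Cox4i2, Ndufa4l2, Higd1b and Rgs5 take within their own gene families, by subtype (points are mice with at least 10 cells, ticks are means). In pericytes the share was 82.2% for Cox4i2, 99.3% for Ndufa4l2, 91.3% for Higd1b and 21.3% for Rgs5.

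The genes most like the 7 were sought across 64 libraries, each the summed cells of 1 subtype in 1 mouse. They were ranked among 12074 genes by Pearson's r with the mean of the 7 log2 levels, each first standardised over the libraries. Trarg1 (r = 0.90), the cation channel Trpc6 (0.90), the gap junction gene Gja4 (0.89), the guanylate cyclase subunits Gucy1a1 (0.88) and Gucy1b1 (0.86), Itga4 (0.87), Nrarp (0.86), the angiotensin receptor Agtr1a (0.86), Pdgfrb (0.85) and Hbegf (0.84) came highest. The libraries of a mouse share its runs, and many libraries are of related subtypes. Among the 7 themselves, Cox4i2 (0.88) and Higd1b (0.87) were closest to the mean of the other 6, and Ndufa4l2 (0.69) and Rgs5 (0.62) were farthest. The gene most like Cox4i2 was Trarg1 (0.87), while that most like both Mcam (0.89) and Rgs5 (0.77) was Lmcd1.

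With age, Vtn and Rgs5 showed the widest pericyte ranges, and no change between neighbouring ages passed the test in pericytes for any of the 7. For E18.5 to P1, edgeR's quasi-likelihood test called 0 of 7 after Benjamini-Hochberg adjustment (0.042% of all genes tested were called), with 2 of 7 at an unadjusted p under 0.05. For P1 to P7 it called 0 of 7 (0% of all genes), with 1 at an unadjusted p under 0.05. For P7 to P21 it called 0 of 7 (0.0504% of all genes), with 2 at an unadjusted p under 0.05. DESeq2 called 0, 0 and 1 of 7 in these comparisons. In the same pericytes 2 of 10 contractile genes fell from P7 to P21 and 0 rose (edgeR), Acta2 from 4694 and 1894 CPM to 94.3 and 120.0, and Actg2 from 452 and 125 CPM to 2 reads in all.

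Pericyte Vtn was 54.3 and 55.0 CPM in the female and male at E18.5, then 227 and 168 at P1 and 85.5 and 289 in the P7 mice, before reaching 643 and 687 at P21. Both P21 mice were above all other mice, and both E18.5 mice below all others outside hyperoxia. The log2 change from P7 to P21 was 1.98 (SE 0.66; adjusted p = 0.921, edgeR), and from E18.5 to P1 it was 1.88 (SE 0.65; adjusted p = 0.756, edgeR). Pericytes with a Vtn read made up 7.14% to 21.4% of cells at E18.5 and 48.0% to 74.3% at P21. Vtn also differed between the plates of a mouse, and was higher on plate 2 than on plate 1 in 8 of 8 mice. On plate 1 it was 0.552 and 263 CPM at P7 and 590.4 and 374 at P21, and on plate 2 it was 155 and 312 at P7 and 692 and 963 at P21. At each plate number both P21 mice were thus above both P7 mice. Plates are numbered within a mouse, so ages were not compared on a shared plate.

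Pericyte Rgs5 was 249 and 99.2 CPM at E18.5, then 60.6 and 68.1 at P1, followed by 403 and 193 in the P7 mice and 63.4 and 47.3 at P21, female first. The 2 mice at P7 were above those at P1 and at P21, with no overlap. The log2 change from P1 to P7 was 2.11 (SE 0.73; adjusted p = 1, edgeR) and from P7 to P21 it was -2.33 (SE 0.74; adjusted p = 0.879, edgeR). DESeq2 gave the latter an adjusted p of 0.0309.

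Cox4i2 was 1461 and 1036 CPM at E18.5, then 3037 and 3007 at P1, followed by 2465 and 2686 in the P7 mice and 2088 and 3444 at P21. Both E18.5 mice were thus below all 6 later mice, and the log2 change from E18.5 to P1 was 1.26 (SE 0.42; adjusted p = 0.737, edgeR). Cspg4 was 476 and 811 CPM at E18.5, then 291 and 523 at P1, followed by 173 and 198 in the P7 mice and 270 and 333 at P21. Its lowest values were those of the P7 mice.

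Higd1b was 1913 and 2271 CPM at E18.5, then 1822 and 1630.1 at P1, followed by 1302 and 2336 in the P7 mice and 877 and 1231 at P21, where both mice were below every younger one. Ndufa4l2 ran from 1184 in the P21 female to 3120 in the P1 female, and Mcam from 742 in the E18.5 female to 1873 in the P7 female, with the ages overlapping. Between the sexes, 0 of 7 were called in pericytes (edgeR; 0.0168% of all genes called), and 0 at an unadjusted p under 0.05. DESeq2 also called 0. Sex and sequencing run cannot be told apart in this comparison.

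**Figure D4:**
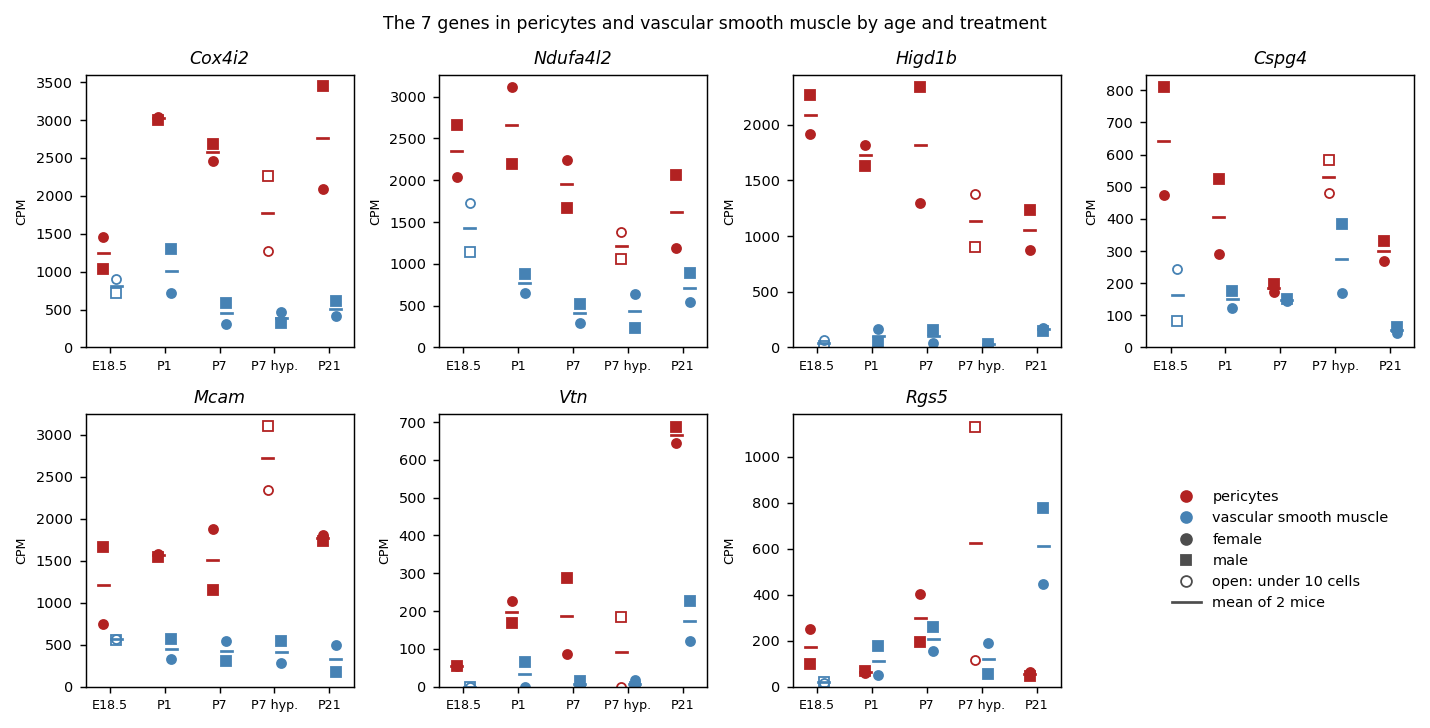
Level of each gene in CPM in pericytes (red) and vascular smooth muscle (blue) by group; circles are females, squares males, open symbols are mice with fewer than 10 cells, and short bars are group means. Rgs5 at P21 is 63.4 and 47.3 CPM in pericytes and 448 and 776 CPM in vascular smooth muscle.

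Pericytes and vascular smooth muscle of the same mouse could be compared in 6 mice, from P1 to P21. Pericytes were higher in 6 of 6 for Cox4i2, Ndufa4l2, Higd1b, Cspg4, Mcam and Vtn, and in 2 of 6 for Rgs5. Rgs5 in vascular smooth muscle was 51.4 and 175 CPM at P1, 157 and 258 at P7, and 448 and 776 at P21, so that its order over age ran against that in pericytes after P7. The log2 change of Rgs5 in vascular smooth muscle from P7 to P21 was 1.71 (adjusted p = 0.689, edgeR). In that comparison 0 of 7 were called (0.0886% of all genes), 1 at an unadjusted p under 0.05. From P1 to P7 in vascular smooth muscle 0 of 7 were called (0% of all genes), none at an unadjusted p under 0.05. DESeq2 called 0 in both.

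The difference between the P7 to P21 change in pericytes and that in vascular smooth muscle was tested as an interaction, which called 0 of 7 (edgeR; 0.00799% of all genes), with 3 at an unadjusted p under 0.05; DESeq2 called 2. For Rgs5 the log2 difference was -3.90 (SE 0.99; adjusted p = 0.946, edgeR). The median over all genes was 0.63 in this fit and 0.43 with DESeq2 size factors, so values near this shift carry no direction.

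Summed over all cells of a mouse, 4 of the 7 genes rose from P7 to P21, while pericytes went from 4.29% and 5.44% of the cells to 13.4% and 24.1%. In these whole-mesenchyme sums, more cells of a type and more RNA per cell cannot be told apart. Background calls in this comparison were 9.97% of all genes tested. Vtn was 3.43 and 13.8 CPM in the female and male at P7 and 80.3 and 159 at P21, a log2 change of 4.05 (SE 0.71; adjusted p = 0.00746, edgeR). Cox4i2 was 108 and 164 CPM at P7 and 266 and 764 at P21 (log2 change 2.12, SE 0.45; adjusted p = 0.0185, edgeR). For both genes each P21 mouse was above each P7 mouse.

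Ndufa4l2 went from 103 and 118 to 190.0 and 513 CPM (log2 change 1.88, SE 0.46; adjusted p = 0.0295, edgeR), and Mcam from 129 and 107 to 238 and 386 CPM (1.60, SE 0.30; adjusted p = 0.0103, edgeR). Higd1b, at 53.2 and 122 CPM and then 109 and 266, and Cspg4, at 27.1 and 32.2 and then 38.8 and 76.4, did not pass (adjusted p = 0.158 and 0.0684, edgeR). Rgs5 was 63.5 and 79.2 CPM at P7 and 33.2 and 68.7 at P21, a log2 change of -0.27 (adjusted p = 0.718, edgeR). The calls rested on few mice. Without the P7 male only Vtn passed, and without the P7 female or the P21 male only Vtn and Mcam did. Without the P21 female 6 of 7 passed.

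Removing the cells of both pericyte labels left 1 of 7 genes called from P7 to P21 (9.88% of all genes tested were called), in a comparison added after the data were seen. Ndufa4l2 then rose by 1.65 on the log2 scale (adjusted p = 0.0128, edgeR), while Cox4i2 was at 0.92 (adjusted p = 0.202, edgeR) and Mcam at -0.44 (adjusted p = 0.414, edgeR). Pericytes held 90.2% and 93.7% of the Cox4i2 reads of the P21 mice, and 71.5% and 83.7% of their Ndufa4l2 reads.

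Other mural genes were also higher at P21 in the sums over all cells of a mouse. Of 23 named for pericytes or mural cells, 14 rose from P7 to P21 and 0 fell (edgeR; 9.97% of all genes tested were called). The median log2 change was 1.94 against 0.029 over all genes tested. Among the 14 were the membrane protein gene Art3 (3.61), the aminopeptidase Anpep (3.50), Agtr1a (2.95) and Gja4 (2.59). Within pericytes edgeR called 0 of the 22 tested, with 5 at an unadjusted p under 0.05. Within vascular smooth muscle it called 0 of 23, with 10 at an unadjusted p under 0.05. The relatives below are again over all cells. Of 10 family relatives, 2 rose, Rgs4 (3.60) and the adhesion gene Alcam (1.30), and 3 fell. Those that fell were Ndufa4 (-1.38), Higd2a (-1.10) and Cox4i1 (-1.10). Their list median was -0.88.

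Over all cells from P7 to P21, 9.97% of all genes tested were called (edgeR). Of 11 hypoxia response genes, 2 rose there, the peptide hormone gene Adm (2.51) and the glucose transporter Slc2a1 (1.90). Another 2 fell, Ankrd37 (-3.27) and the prolyl hydroxylase Egln3 (-2.89), and the list median was -0.41. Of 7 vitronectin partners, integrins and others, 0 were called by edgeR, with 1 at an unadjusted p under 0.05. In pericytes the integrin subunits Itgb1 and Itgb5 were at mean levels of 977 and 238 CPM. Again over all cells, 3 of 10 contractile genes fell, Actg2 (-2.63), Cnn1 (-1.94) and Acta2 (-1.68), and 0 rose, with a list median of -0.89.

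Earlier steps gave no calls over all cells. From E18.5 to P1, 0 of 7 were called (edgeR; 1.23% of all genes), 5 of them at an unadjusted p under 0.05, and DESeq2 called 2. Vtn had the largest of these log2 changes, 2.37 (SE 0.66; adjusted p = 0.149, edgeR), and Rgs5 the lowest adjusted p, with -1.83 (SE 0.40; adjusted p = 0.0658, edgeR). Without either P21 mouse, 1 of 7 passed. Of the mural list, Art3 rose (4.76) and the endothelin receptor Ednrb fell (-2.22) in this interval. From P1 to P7, 0 of 7 were called (edgeR; 0.22% of all genes), 2 of them, Rgs5 and Mcam, at an unadjusted p under 0.05, and DESeq2 called 1. Leaving out either P21 mouse gave 1 call there too. Without the cells of both pericyte labels, 1 of 7 passed from E18.5 to P1, Ndufa4l2 (1.28% of all genes called), and 0 from P1 to P7 (edgeR; 0.226% of all genes).

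Under hyperoxia at P7, pericytes were 0.982% and 0.544% of the cells of the female and male, and the whole-mesenchyme levels of the genes were lower by their estimates, none of them called. Over all cells edgeR called 0 of 7 (0.243% of all genes), 6 at an unadjusted p under 0.05, all 6 with lower levels. DESeq2 called 4, but it also called many more of all genes than edgeR in this comparison. The log2 differences were -2.57 for Higd1b (SE 0.59; adjusted p = 0.118, edgeR), -2.51 for Vtn (SE 0.69; adjusted p = 0.197, edgeR) and -1.88 for Cox4i2 (SE 0.45; adjusted p = 0.145, edgeR). Mcam was at -1.11, Ndufa4l2 at -1.08, Rgs5 at -1.00 and Cspg4 at -0.21. Without either P21 mouse, 2 of 7 passed. Without the cells of both pericyte labels, edgeR called 0 of 7 (0.249% of all genes), and the fitted difference was 0.26 for Ndufa4l2 and 2.29 for Vtn, neither called. Vtn was then at a mean of 0.379 CPM in normal mice and 0.415 CPM under hyperoxia, so its level barely differed. Ndufa4l2 was at 32.6 and 39.9 CPM.

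Marker genes of other cell types shifted in the same comparison, with 0 called. Fibroblast markers summed to 1262 and 944 CPM in the normal female and male and 2270 and 2278 CPM under hyperoxia (4 of 6 at an unadjusted p under 0.05, median log2 difference 1.26). Mesothelial markers summed to 19.1 and 0.379 CPM and then 126 and 145 CPM (3 of 4), and endothelial markers to 8.62 and 6.97 and then 15.3 and 34.7 CPM (3 of 7). Their part in the values of the 7 genes was not tested.

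Few genes of the other mural list passed the test here. Of its 23 genes, 1 fell under hyperoxia, Gja4 (log2 difference -2.12, adjusted p = 0.0420, edgeR), and 0 rose (0.243% of all genes tested were called). The list median was -0.59 against 0.00246 over all genes tested.

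**Figure D5:**
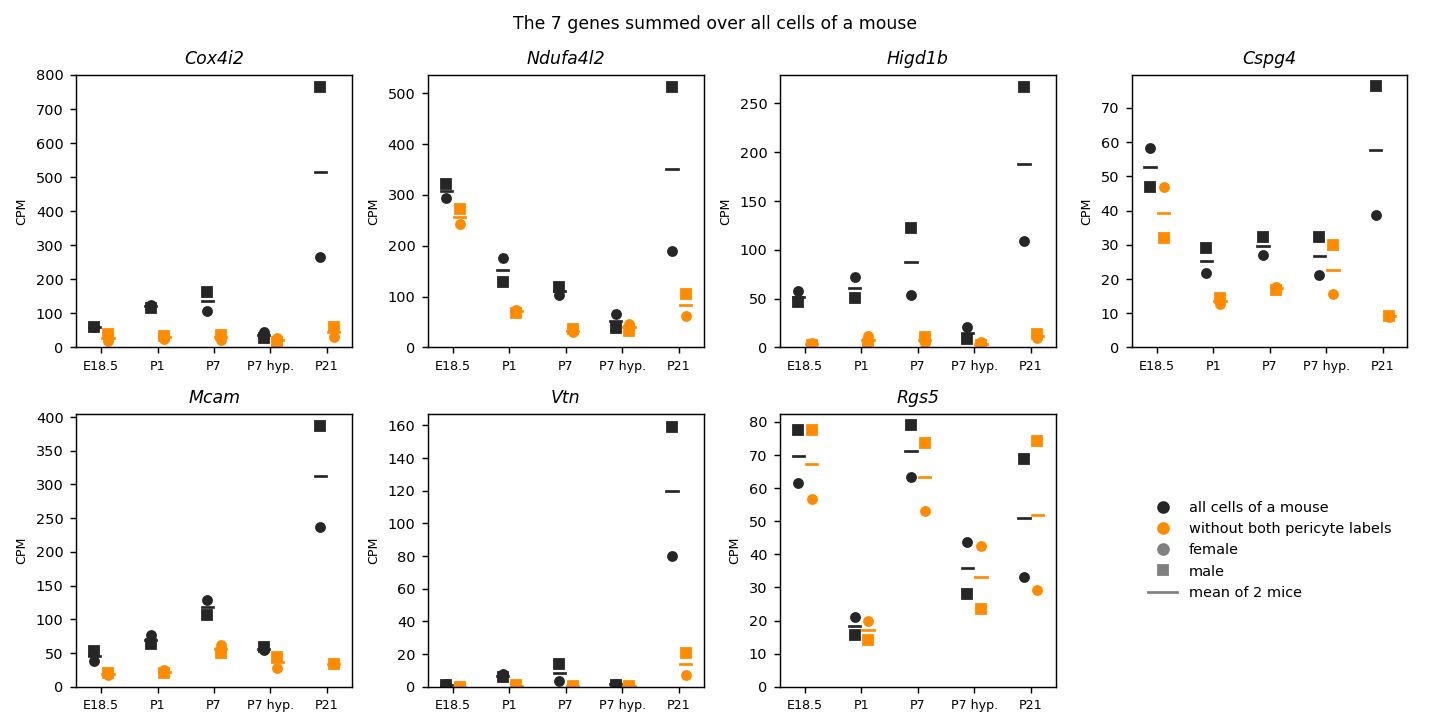
Level of each gene over all cells of a mouse (black) and without the cells of both pericyte labels (orange), in CPM by group, with each mouse as a point. Over all cells Cox4i2 was 266 and 764 CPM at P21 against 108 and 164 CPM at P7.

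In the 8 hyperoxia pericytes themselves, all 8 cells had reads of Cox4i2, Ndufa4l2, Higd1b and Mcam. Mcam was 2338 and 3100 CPM in the female and male under hyperoxia, against 1873 and 1149 in the normal group at P7, and Cspg4 480 and 582 against 173 and 198. For both genes the hyperoxia values were the higher, with no overlap. Ndufa4l2 was 1382 and 1052 CPM under hyperoxia against 2241 and 1667, and here the hyperoxia values were the lower. Cox4i2, at 1275 and 2263 CPM, was also below both mice in the normal group, whereas Higd1b, at 1375 and 900.1 CPM, overlapped them. Vtn had no read in 5 cells of the female, too few cells to show that it was absent, and was 184 CPM in the male. The Rgs5 value of the male, 1130.1 CPM, came from 1 of its 3 cells.

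Outside the pericytes, hyperoxia was tested in 5 subtypes, and 0 members were called in any (edgeR; 0% of all genes in each). In vascular smooth muscle, early alveolar fibroblasts, myofibroblasts and early airway smooth muscle, 0 were at an unadjusted p under 0.05, and in early adventitial fibroblasts 1 was. DESeq2 called 1 in early airway smooth muscle and 1 in early adventitial fibroblasts. In the latter, Mcam was 0.0346 and 0.310 CPM in the female and male in the normal group and 8.18 and 57.7 CPM under hyperoxia, from 2 and 19 reads and from 574 and 6883 reads. Its log2 difference was 7.37 (adjusted p = 0.351, edgeR). Leaving out the cells with at least 5 of the 7 genes, the hyperoxia values were 6.69 and 40.3 CPM, still above both mice in the normal group. Without the CD31-sorted cells the log2 difference was 8.03 (adjusted p = 0.370, edgeR).

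Other markers stood higher beside Mcam in these early adventitial fibroblasts, with 0 called. Of 7 endothelial markers, 6 were at an unadjusted p under 0.05 (edgeR, median log2 difference 7.93). Their summed levels were 55.0 and 16.2 CPM in the normal female and male and 56.0 and 106 CPM under hyperoxia. These sums did not overlap, but those of the females were nearly equal. Tie1 and Emcn were at 0 in the normal female and Cdh5 in the normal male, and no endothelial marker was at 0 under hyperoxia. Contractile genes summed to 1477 and 1887 CPM and then 2965 and 2739 CPM (6 of 10, median 1.66), and mesothelial markers to 218 and 0.0652 and then 576 and 654 CPM (2 of 4, median 7.41). Their part in the Mcam values was not tested.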

How the data were processed

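Single mesenchymal cells of mouse distal lung were isolated by flow sorting and sequenced in plates after Tn5 tagmentation, per the labels' protocols. The authors deposited whole-number read counts per gene and cell, not normalized. The submitters' processing notes name STAR 2.5.2b, HTSeq 0.10 and the build GRCh38, a human build, so no coordinates of counted genes are given. No molecular identifiers are named, and intervals and limits from counts of 0 cover counting error only. The 7 genes and the other lists were chosen with earlier results of these data known.

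Counts were summed per mouse and subtype (at least 10 cells) and tested in R 4.3.3 with edgeR 4.0.16 (TMM scaling, filterByExpr, two-sided quasi-likelihood test). The fits had terms for group and sex and held all groups whose mice had at least 10 cells of the subtype. The interaction of subtype and age instead had terms for mouse, subtype and subtype by age. It held pericytes and vascular smooth muscle of the normal P7 and P21 mice. P-values were adjusted by Benjamini-Hochberg over all genes, with a threshold of 0.05. The scripts were tested on simulated data. DESeq2 1.42.0 was an alternative. The shares of all genes called are those of edgeR throughout, also where a DESeq2 count stands beside them. Gene lengths came from the GENCODE M21 annotation, which matched 99.7% of the gene symbols. No doublets were removed here, and whether the authors had removed any is not given in the sources used here. The 71 cells from CD31 or CD45 sorts were kept, 4 of them pericytes. Named genes are the 7, up to 4 called genes of each list by size of change (otherwise the 2 highest in pericytes), the 10 genes most like the mean of the 7 and the gene most like each. Depth was 39358 to 5177020 reads per cell.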

Additional observations from a re-analysis of the deposited data

Results flagged for a closer look

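Rgs5 and Cspg4 moved in opposite directions in pericytes and in vascular smooth muscle from P7 to P21, in the mice of both sexes. For Rgs5 the log2 difference between the changes was -3.90 (SE 0.99; adjusted p = 0.946, edgeR): pericytes went from 403 and 193 CPM in the female and male to 63.4 and 47.3, and vascular smooth muscle from 157 and 258 to 448 and 776. For Cspg4 it was 2.16 (SE 0.89; adjusted p = 1, edgeR), with pericytes at 173 and 198 and then 270 and 333 CPM, and vascular smooth muscle at 144 and 150.1 and then 45.0 and 62.4 CPM. Neither passed the test of the difference.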

How the results depend on the processing

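The 16 counts of genes called were recomputed under 234 alternatives in all, and 212 left the count within 1.5 times its value. DESeq2 gave 2 for E18.5 to P1, 1 for P1 to P7 and 4 for hyperoxia over all cells, 1 for P7 to P21 in pericytes, 1 each for hyperoxia in early adventitial fibroblasts and in early airway smooth muscle, and 2 for the difference between pericytes and vascular smooth muscle, each in place of 0. With only the mice of the contrast in the fit, the counts were 3 for E18.5 to P1 and 1 for P1 to P7 over all cells. Without the cells of both pericyte labels they were 1 for E18.5 to P1 and 1 in place of 4 for P7 to P21. Leaving out 1 mouse at a time gave 0 to 1 for E18.5 to P1 and for P1 to P7, 1 to 6 for P7 to P21 and 0 to 2 for hyperoxia over all cells, and 0 to 1 for the difference between pericytes and vascular smooth muscle, where 1 passed without the P7 male. The cause was not tested. Of 452 recomputed changes of single genes, 412 kept direction and side of the threshold, 9 lost the threshold, 27 passed it and 4 changed sign, all without the cells of both pericyte labels: Cspg4 (-0.63) and Mcam (-0.44) for P7 to P21, and Ndufa4l2 (0.26) and Vtn (2.29) for hyperoxia. Mean pericyte levels moved by less than 1 SD under every alternative run. Over all genes, DESeq2 called 3635 from P7 to P21 against 1723 with edgeR, and 800 against 42 for hyperoxia.

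Sex served as the replicate block. Deviations of same-sex mice from their group means correlated at -0.17 to 0.27 over all cells and at -0.0175 to 0.0162 in pericytes, so sex did not pair the mice. Without the block, the count was 1 in place of 0 for E18.5 to P1 over all cells and unchanged in the other comparisons that could be fitted without it. With 2 mice a group and 14 to 75 pericytes a mouse outside hyperoxia, differences of the size seen for Vtn and Rgs5 between P7 and P21 in pericytes did not pass in edgeR.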

Other observations

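Single genes outside the 7 came close to individual members across the 64 libraries. The gene most like Higd1b was Trpc6 (Pearson's r = 0.90), that most like Vtn was Adap2os (0.88), and those most like Ndufa4l2 and Cspg4 were the transcription factor gene Foxs1 (0.80) and the integrin gene Itga4 (0.80). Hypoxia response genes over all cells had 1 call from E18.5 to P1, where 1.23% of all genes tested were called. The called gene, Bnip3, fell by 1.68 on the log2 scale (adjusted p = 0.0299, edgeR). Of the contractile genes, Cnn1 (4.03) and Tagln (1.65) rose in that interval.

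Between the plates of a mouse, pericyte levels were higher on plate 2 than on plate 1 in 8 of 8 mice for Vtn, 7 for Cox4i2, 6 for Mcam, 5 each for Higd1b and Ndufa4l2, 4 for Rgs5 and 1 for Cspg4.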
